A study of Mus musculus with 54 samples.

Results

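The comparison set the suprachiasmatic nucleus (SCN) at Zeitgeber time 14 (ZT14) and ZT22 against the SCN at ZT18 and ZT2, for every gene with reads. Zeitgeber time counts hours from lights on, so ZT2 lay in the light phase and ZT14, ZT18 and ZT22 in the dark phase of a 12-hr light, 12-hr dark cycle. The members were picked by timepoint alone: all 3 libraries of each of the 4 timepoints, which is 12 of the 18 libraries of the time course and 36 of its 54 lane samples. ZT6 and ZT10 were left out. Of 30031 genes in the count table, 25083 had reads in the 12 libraries, and the 18126 with at least 1 read in more than 6 of them were tested. The question was which transcripts stood higher, or lower, at ZT14 and ZT22 than at ZT18 and ZT2, the next timepoint after each. A pattern with 2 peaks in the night gives such a difference, and so does a level that falls steadily from ZT14 to ZT2. The difference alone does not tell these patterns apart.

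The samples of all 4 timepoints came from male C3H/HeH mice of 10 to 12 weeks with no genetic change and no treatment other than the light cycle. The SCN was cut out of Nissl-stained brain sections with a laser, tissue of 5 animals was pooled into a replicate, and the RNA was amplified (SMARTer) before polyA libraries were read on 3 lanes, whose reads are summed in the count table. The 4 timepoints formed 2 clusters of libraries, ZT14 with ZT18 and ZT22 with ZT2. The study describes its principal component clusters by timepoint and sequencing batch, and the labels give no batch, so a batch and a pair of timepoints cannot be told apart here. Each cluster holds 1 timepoint of either side, so the cluster was a block in the fit and each difference was also taken inside each cluster.

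The SCN is the hypothalamic pacemaker of daily rhythms. In its neurons the transcription factors CLOCK and BMAL1 drive *Per* and *Cry* genes, whose proteins then repress that drive. Light reaches the SCN through glutamate from retinal ganglion cell axons, which opens NMDA and AMPA receptors, raises calcium, activates kinases such as CaMKII and MAP kinases and induces immediate early genes and *Per1*. Light moves the clock at night and little by day, delaying it in the early night and advancing it in the late night. SCN neurons signal to each other with GABA and with peptides such as VIP, AVP and prokineticin 2.

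Library totals ran from 15412981 (ZT18 C) to 35820945 reads (ZT14 A), with a median of 27780208. Replicates of a timepoint correlated at Pearson's r of 0.892 to 0.976 over log2 CPM and differed by more than sampling noise (chi-square per gene 39.1 to 138). In a principal component analysis of the 12 libraries the first component (47.2% of the variance) separated the clusters, and ZT18 C lay apart from the others on the second (21.9%), at -63.3 where the other 11 lay between -14.9 and 25.1. The SCN markers were present in all 12 libraries: the 14 markers of SCN neurons had reads in every library, *Vip*, the peptide of the ventral SCN, stood between 753 and 2201 CPM and *Avp*, the peptide of the dorsal SCN, between 3.15 and 67.2 CPM (counts scaled to a common library size by TMM). Markers of other brain cells were also read and are described with the results they moved with. In bulk tissue, fewer cells of a type and less RNA per cell cannot be told apart. A replicate is a pool, so the p-values of differences inside a cluster measure the spread between pools. The fit of both clusters together had no interaction term, so its p-values also take in any disagreement between the differences inside the clusters.

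No gene passed the adjusted threshold for the difference between ZT14 plus ZT22 and ZT18 plus ZT2. edgeR's quasi-likelihood test called 0 of 18126 genes at q (Benjamini-Hochberg adjusted p) below 0.05, which is 0%, and the smallest q was 0.0673. At an unadjusted p below 0.05 it held 1926 genes, of which 1054 (5.81%) were higher and 872 (4.81%) lower at ZT14 and ZT22. DESeq2's Wald test on the same counts called 455, of which 262 (1.45%) were higher and 193 (1.06%) lower, and limma-voom called 4, *Rbfox1*, *Rasal1*, *Srcin1* and *Synpo*, all higher. The DESeq2 percentages are of all 18126 genes, of which 2562 had no adjusted p in DESeq2 and could not be called. Whether a gene passed thus depended on the tool, so the genes below are given by their values and, where it applies, as having passed DESeq2's test.

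Among the fits with a single library left out, the edgeR count moved most without ZT22 A. Without it 127 of 17786 genes passed, 121 higher and 6 lower, and 113 of the 127 (89.0%) were among the 455 of DESeq2, which is 24.8% of the 455. Without ZT2 C, 3 genes passed (*Rbfox1*, *Tiam2* and *Synpo*), and without any 1 of the other 10 libraries, ZT18 C included, none did. ZT22 A was singled out after all these counts were seen, so the calls without it given below are not independent evidence. The median log2 difference of all genes tested was 0.01.

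The libraries can also be read without a model. In 205 genes (1.13%) every ZT14 library lay above every ZT18 library and every ZT22 library above every ZT2 library, and in 150 genes (0.828%) the reverse held. All 6 libraries of ZT14 and ZT22 lay above all 6 of the other timepoints in 64 genes and below them in 29. The sign was the same in both clusters in 9845 genes (54.3%), positive in 5125 and negative in 4720. Of the 455 genes that passed DESeq2's test, all had the same sign in both clusters, which a difference taken over both favours, and 204 had libraries apart in both. By gene type, DESeq2 called 255 higher and 170 lower of 14799 protein-coding genes and 0 higher and 1 lower of 200 annotated lincRNAs.

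The 8 genes with the smallest p on the higher side, among those with a mean of at least 1 CPM, were *Rbfox1*, *Srcin1*, *Synpo*, *Ptk2b*, *Slc17a7*, *Fam160a1*, *Thy1* and *Wipf3*. *Rbfox1* encodes a neuronal splicing factor (GRCm38 chr16:5885355-7411526, + strand). It stood at 277, 249.7 and 201 CPM at ZT14, 49.9, 64.9 and 68.6 at ZT18, 117, 221 and 218 at ZT22 and 40.7, 76.9 and 102 at ZT2, libraries A, B and C in that order. All 6 libraries of ZT14 and ZT22 were above all 6 others, with a log2 difference of 1.66 ± 0.24 SE (standard error) and q = 0.0673 in edgeR, 1.99 between ZT14 and ZT18 and 1.34 between ZT22 and ZT2. *Srcin1*, which encodes an inhibitor of SRC kinase found in dendritic spines (chr11:97509340-97576186, - strand), read 62.3, 67 and 54.9 CPM at ZT14, 27.9, 32.6 and 32 at ZT18, 29, 34.2 and 33 at ZT22 and 17.6, 19.5 and 20.6 at ZT2. It was higher inside each cluster without overlap, while the ranges of ZT22 and ZT18 overlapped. Its log2 difference was 0.87 ± 0.12 SE, q = 0.0673.

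*Synpo* encodes synaptopodin, an actin-associated protein of the spine apparatus (chr18:60593973-60660142, - strand). It read 119.9, 118 and 110.4 CPM at ZT14, 22.9, 44.8 and 37.5 at ZT18, 18.5, 32.7 and 26.3 at ZT22 and 10.1, 11.2 and 15.9 at ZT2, a log2 difference of 1.39 ± 0.21 SE with q = 0.0893. The libraries were apart within each cluster. The means of *Synpo* at ZT14, ZT18, ZT22 and ZT2 fell steadily (116, 35.1, 25.8 and 12.4 CPM), without a second peak at ZT22. Those of *Rbfox1* rose again at ZT22 (242, 61.1, 185 and 73.3 CPM). *Ptk2b*, which encodes the calcium-sensitive tyrosine kinase PYK2 (chr14:66153257-66281052, - strand), read 176, 222 and 210.1 CPM at ZT14, 47.4, 57.5 and 41.9 at ZT18, 99.2, 373 and 299 at ZT22 and 126, 63.4 and 93.5 at ZT2. The ZT22 A library fell among those of ZT2, and the log2 difference was 1.75 ± 0.28 SE, q = 0.0922. *Thy1*, a neuronal surface glycoprotein (chr9:44043384-44048579, + strand), ranged from 76.3 to 135 CPM (median 107) at ZT14 and ZT22 and from 48.7 to 71.2 CPM (median 58.3) at ZT18 and ZT2, with no overlap and a log2 difference of 0.86 ± 0.14 SE (q = 0.0922).

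*Slc17a7* encodes the vesicular glutamate transporter VGLUT1, which marks cortical and other telencephalic excitatory neurons rather than the GABA neurons of the SCN (chr7:45163949-45176142, + strand). It ranged from 21.7 to 83.5 CPM (median 53) at ZT14 and ZT22 and from 11.1 to 22.2 CPM (median 17.9) at ZT18 and ZT2, with a log2 difference of 1.76 ± 0.29 SE and q = 0.0922. *Fam160a1* was a low transcript (chr3:85660061-85817291, - strand), from 0.73 to 3.85 CPM (median 1.33) at ZT14 and ZT22 and from 0.0323 to 0.304 CPM (median 0.0907) at ZT18 and ZT2, without overlap (log2 difference 4.11 ± 0.69 SE, q = 0.0922). *Wipf3*, which encodes an actin-regulating protein of the WIP family, shares exonic sequence with *9130019P16Rik* and *Scrn1*, so its reads are uncertain. It ranged from 22.2 to 174 CPM (median 75.1) at ZT14 and ZT22 and from 14 to 24.2 CPM (median 19.7) at ZT18 and ZT2 (log2 difference 2.14 ± 0.36 SE, q = 0.0922).

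**Figure D1:**
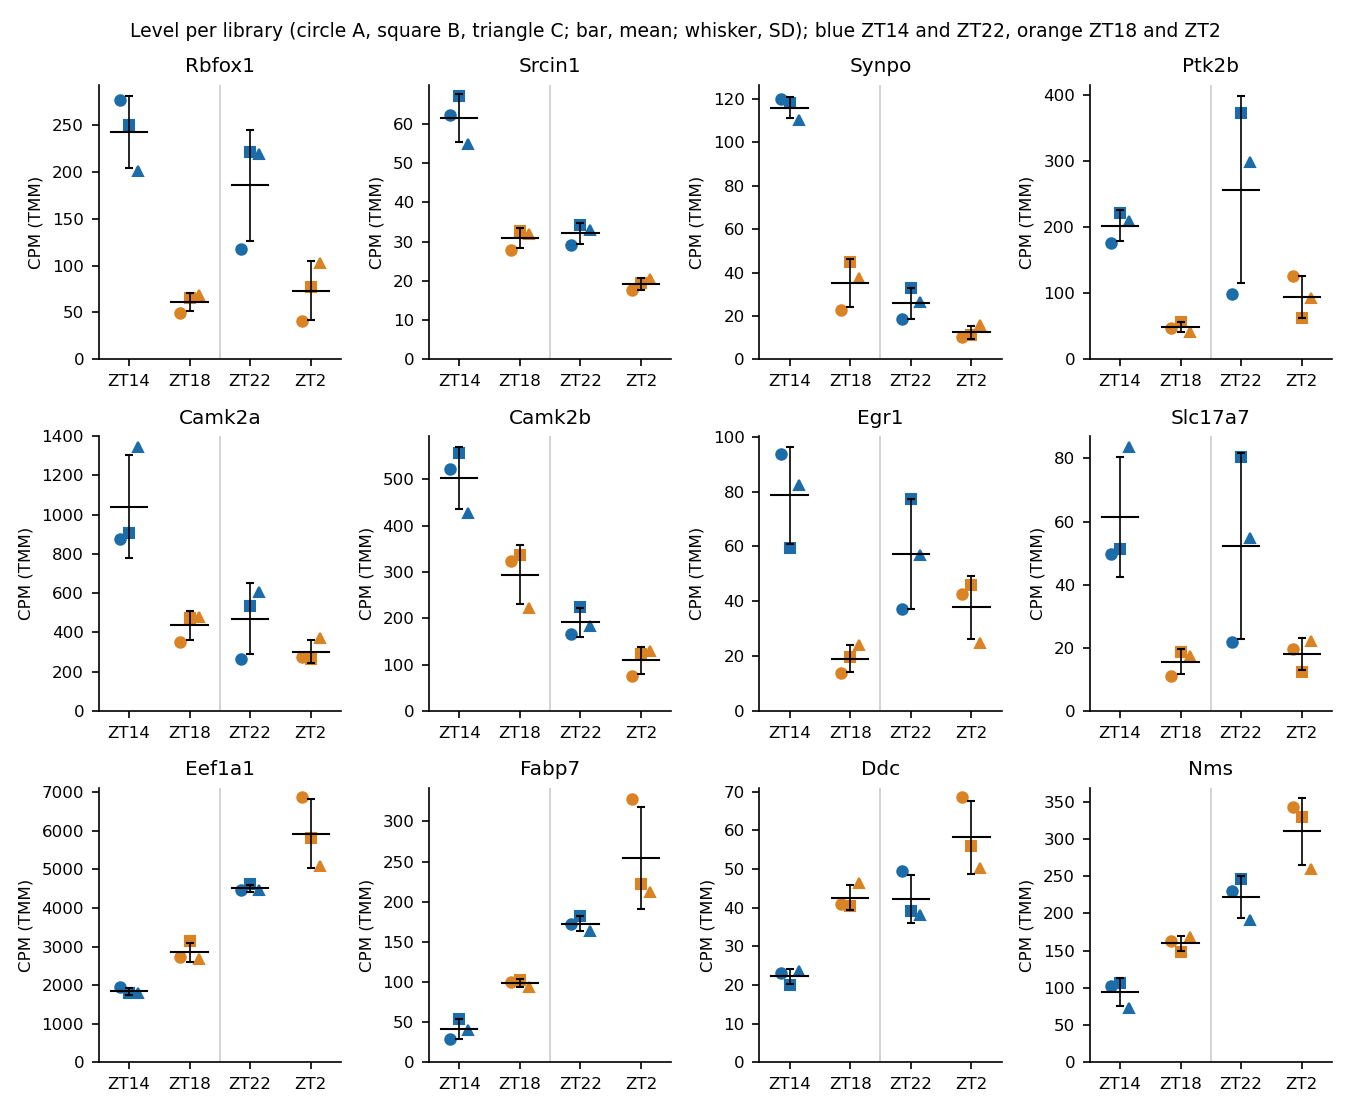
Level of 12 genes in each library, in CPM after TMM scaling (y axis, from 0) by timepoint (x axis). Points are libraries A, B and C, bars are means and whiskers SD (n = 3), blue marks ZT14 and ZT22 and orange ZT18 and ZT2, and a grey line parts the clusters. In Rbfox1 all 6 blue points lie above all 6 orange ones, while in Nms and Fabp7 the blue points lie below the orange ones inside each cluster.

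On the lower side the 8 genes with the smallest p were *Eef1a1*, *Gm11168*, *Fabp7*, *Tmtc4*, *Ddc*, *Nms*, *M6pr* and *Zwint*, with q from 0.117 to 0.123. *Nms* encodes neuromedin S, a peptide of SCN neurons (chr1:38939149-38950276, + strand). It read 103, 107 and 73.6 CPM at ZT14, 163, 148 and 168 at ZT18, 229.9, 246 and 191 at ZT22 and 343, 329 and 259 at ZT2. Inside each cluster every ZT14 library was below every ZT18 library and every ZT22 library below every ZT2 library, with a log2 difference of -0.62 ± 0.13 SE, q = 0.117. The means of *Nms* rose steadily over ZT14, ZT18, ZT22 and ZT2 (94.6, 160, 222 and 310 CPM), without a second trough at ZT22. *Ddc*, which encodes aromatic amino acid decarboxylase, the enzyme that makes dopamine and serotonin from their precursors (chr11:11814101-11898144, - strand), read 23, 19.9 and 23.7 CPM at ZT14, 41, 40.5 and 46.3 at ZT18, 49.4, 39 and 38.2 at ZT22 and 68.6, 55.9 and 50.1 at ZT2. It too was lower inside each cluster without overlap (log2 difference -0.70 ± 0.14 SE, q = 0.117).

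*Fabp7* encodes the brain fatty acid binding protein of astrocytes and radial glia (chr10:57784881-57788450, + strand). It read 29.6, 54.4 and 40.8 CPM at ZT14, 99.5, 103 and 93.5 at ZT18, 172, 182 and 164 at ZT22 and 327, 223 and 213 at ZT2, a log2 difference of -0.90 ± 0.18 SE (q = 0.117) with libraries apart in each cluster. Its means, too, rose steadily from ZT14 to ZT2. *Eef1a1* encodes the elongation factor that brings aminoacyl-tRNA to the ribosome (chr9:78478449-78489151, - strand) and has many near-identical processed copies in the genome, among which counting may have split its reads. It ranged from 1788 to 4623 CPM (median 3206) at ZT14 and ZT22 and from 2683 to 6866 CPM (median 4115) at ZT18 and ZT2, with a log2 difference of -0.51 ± 0.10 SE. *M6pr*, which encodes the cation-dependent mannose-6-phosphate receptor, ranged from 142 to 186 CPM (median 163) at ZT14 and ZT22 and from 181 to 264 CPM (median 230.4) at ZT18 and ZT2 (-0.46 ± 0.10 SE on the log2 scale).

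*Zwint*, a kinetochore gene that is also strongly expressed in neurons, ranged from 1832 to 3901 CPM (median 2794) at ZT14 and ZT22 and from 2428 to 5626 CPM (median 3951) at ZT18 and ZT2, a log2 difference of -0.52 ± 0.11 SE. *M6pr*, *Zwint* and *Eef1a1* were each lower in both clusters without overlap. Over ZT14, ZT18, ZT22 and ZT2 the means of *Eef1a1* (1845, 2852, 4517 and 5921 CPM) and *Zwint* (1995, 3063, 3622 and 4865 CPM) rose steadily. Those of *M6pr* fell again at ZT22 (151, 202, 177 and 249 CPM). *Tmtc4*, which overlaps *4930594M22Rik*, had a log2 difference of -0.81 ± 0.16 SE, and its means also rose steadily (31.9, 52.7, 61.6 and 114 CPM). *Gm11168* is a gene model of a repeat-like family with near-identical copies, and its difference of -4.92 ± 0.97 SE came with 79.5 CPM in ZT18 B against at most 18 in any other library of ZT18 and ZT2. *Gm10801* and *Gm10722*, named after their values were seen, followed it at 102 and 117 CPM in ZT18 B.

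The difference was next taken inside each cluster. Between ZT14 and ZT18 edgeR called 119 genes (0.657%), 86 higher and 33 lower at ZT14. That count was 127 without ZT18 C, but it was 0 without ZT14 A, ZT14 B, ZT18 B or ZT22 B, 1 (*Arhgap32*) without ZT22 C, 2 (*Foxp1* and *Penk*) without ZT14 C, 12 without ZT2 B, 63 without ZT2 C and 71 without ZT18 A (*Arhgap32* and *Penk* are named after their values were seen). Between ZT22 and ZT2 it called 2 (0.011%), both lower at ZT22: *Bhlhe41* and *Rasl11b*, at q = 0.0309 each, with log2 differences of -1.91 and -1.74. DESeq2 called 1204 and 41, and limma-voom 223 and 7. The 2 counts do not show by themselves that the clusters differed. The test of that, whether ZT14 minus ZT18 equalled ZT22 minus ZT2, called 0 genes in edgeR (smallest q 0.0663, 1512 genes at an unadjusted p below 0.05), 3 in limma-voom (*Bhlhe41*, *Ciart* and *Per2*) and 191 (1.05%) in DESeq2, 124 of them with the larger value in the ZT14 and ZT18 cluster.

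**Figure D2:**
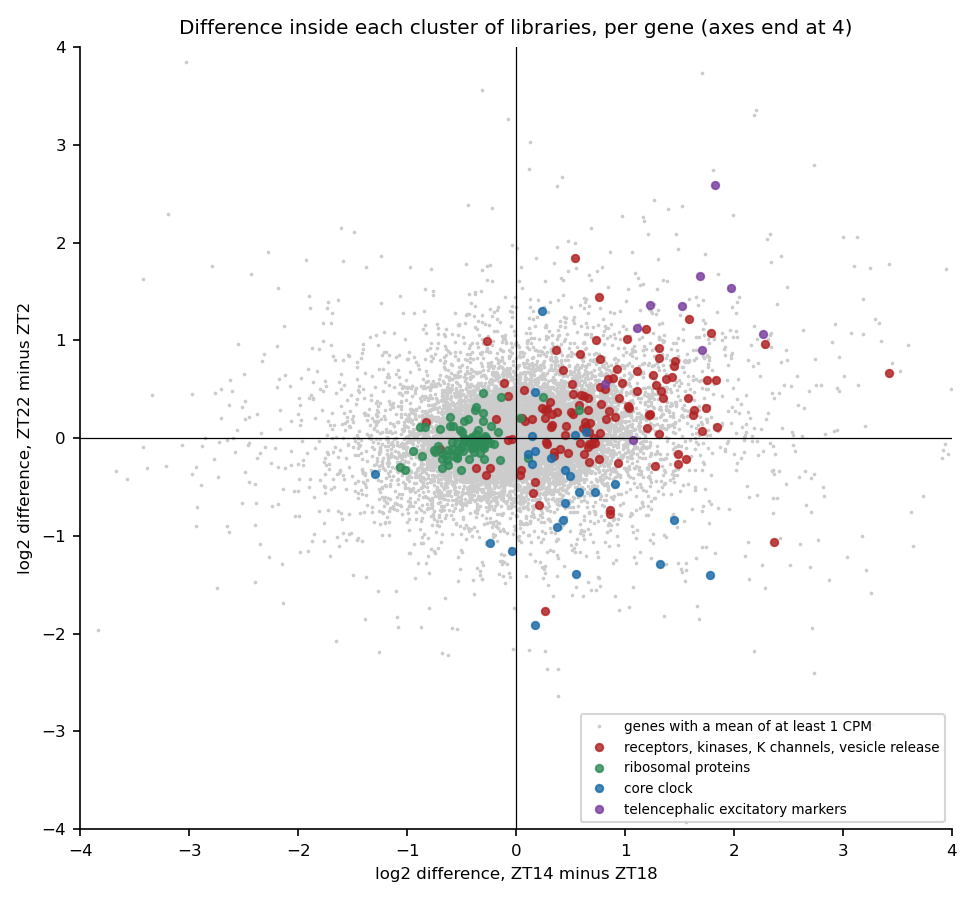
Log2 difference of ZT14 minus ZT18 (x axis) and of ZT22 minus ZT2 (y axis) for each gene with a mean of at least 1 CPM; both axes end at 4, which leaves a few genes outside. Red points (glutamate receptors, light-input kinases, potassium channels and vesicle release) lie mostly right of 0, purple ones (telencephalic excitatory markers) mostly right of and above 0, green ones (ribosomal proteins) mostly left of 0, and blue ones (core clock) mostly right of and below 0.

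Among the genes with the smallest p for unequal differences, *Prok2*, *Per2*, *Bhlhe41* and *Ciart* had positive values and *Qrfpr*, *Nudt2*, *Tmem53* and *Dmrtb1* negative ones. *Prok2* encodes prokineticin 2, a peptide by which the SCN signals to its targets (chr6:99711299-99726392, - strand). It read 8.2, 7.59 and 4.74 CPM at ZT14, 1.81, 3.72 and 1.29 at ZT18, 3.1, 8.63 and 13.7 at ZT22 and 77.9, 169 and 140.3 at ZT2. ZT2 stood far above the other timepoints, and the cluster differences were 1.56 and -3.93, unequal by 5.49 ± 0.74 (SE, q = 0.0663). *Per2*, a repressor of the clock (chr1:91415982-91459324, - strand), read 73.5, 60.2 and 76.7 CPM at ZT14, 26, 26.9 and 31.2 at ZT18, 6.94, 15 and 10.8 at ZT22 and 24.7, 26 and 29.2 at ZT2.

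*Per2* thus had its highest libraries at ZT14 and its lowest at ZT22, with differences of 1.32 and -1.28, unequal by 2.61 ± 0.36 (SE, q = 0.0663). *Ciart*, which encodes a repressor of CLOCK and BMAL1 also called CHRONO (chr3:95878503-95882251, - strand), read 59.7, 41.6 and 38.8 CPM at ZT14, 20.1, 14.5 and 5.85 at ZT18, 28.6, 23.7 and 27.8 at ZT22 and 61.4, 81.9 and 67.8 at ZT2. It was higher at ZT14 than at ZT18 (1.78) and lower at ZT22 than at ZT2 (-1.40), unequal by 3.18 ± 0.49 (SE, q = 0.097). *Bhlhe41*, a repressor that binds E-boxes (chr6:145858243-145865558, - strand), read 133, 148 and 127 CPM at ZT14, 94.8, 104 and 164 at ZT18, 113, 75.4 and 126 at ZT22 and 407, 419 and 356 at ZT2. Only ZT2 stood out among the 4 timepoints, and the differences of 0.17 and -1.91 were unequal by 2.08 ± 0.32 (SE, q = 0.097).

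Among the negative genes, *Qrfpr*, which encodes the receptor of the neuropeptide QRFP, read 3.79, 5.45 and 5.21 CPM at ZT14, 14.1, 19.8 and 17.6 at ZT18, 25.5, 23.1 and 18.4 at ZT22 and 12.6, 15.8 and 13.3 at ZT2. ZT14 was below every other timepoint, and the differences of -1.83 and 0.68 were unequal by -2.52 ± 0.36 (SE, q = 0.0752). *Nudt2*, which encodes a diadenosine tetraphosphate hydrolase, was likewise low, at 42.1, 45.4 and 39.4 CPM at ZT14 against 71.3 CPM or more elsewhere, unequal by -1.16 ± 0.20 (SE, q = 0.123). *Tmem53* (sharing exonic sequence with *Armh1*) and *Dmrtb1*, a DM-domain transcription factor, had q = 0.177 and 0.196.

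**Figure D3:**
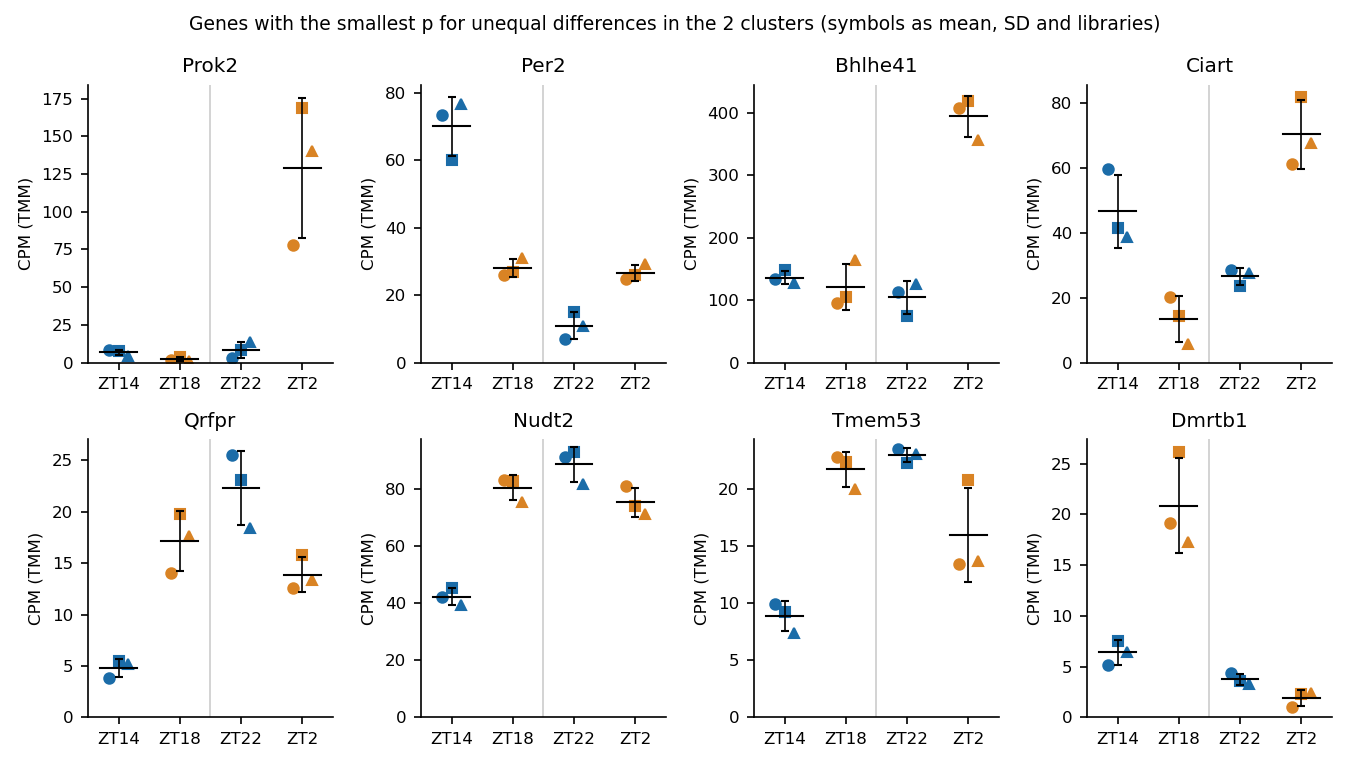
Level in each library, in CPM after TMM scaling (y axis, from 0), of the 8 genes with the smallest p for unequal differences in the clusters. Points are libraries A, B and C, bars are means and whiskers SD (n = 3), blue is ZT14 and ZT22 and orange ZT18 and ZT2. Prok2 and Bhlhe41 stand high at ZT2 alone, Per2 highest at ZT14, and Qrfpr, Nudt2 and Tmem53 lowest at ZT14.

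The promoters of 3 of these genes hold an E-box, the element bound by CLOCK and BMAL1 and by BHLHE41. They are printed from 250 bases before to 50 bases after the start of transcription (RefSeq, GRCm38.p6), 5′ to 3′ on the gene's strand, with CACGTG in capitals: *Prok2* at chr6:99726343-99726642 on the - strand, *Ciart* at chr3:95882179-95882478 on the - strand and *Bhlhe41* at chr6:145865371-145865670 on the - strand.
Prok2: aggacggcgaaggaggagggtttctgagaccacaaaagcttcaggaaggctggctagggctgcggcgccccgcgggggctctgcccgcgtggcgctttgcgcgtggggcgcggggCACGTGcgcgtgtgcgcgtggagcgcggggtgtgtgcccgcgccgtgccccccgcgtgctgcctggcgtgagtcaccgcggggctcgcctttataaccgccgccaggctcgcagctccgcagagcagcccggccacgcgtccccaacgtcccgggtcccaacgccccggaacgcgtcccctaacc
Ciart: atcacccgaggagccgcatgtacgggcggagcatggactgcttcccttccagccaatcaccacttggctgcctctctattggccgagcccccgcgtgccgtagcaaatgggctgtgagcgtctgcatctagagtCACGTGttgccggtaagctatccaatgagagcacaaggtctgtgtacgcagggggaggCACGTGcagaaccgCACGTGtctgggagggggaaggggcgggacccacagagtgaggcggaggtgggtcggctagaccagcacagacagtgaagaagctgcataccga
Bhlhe41: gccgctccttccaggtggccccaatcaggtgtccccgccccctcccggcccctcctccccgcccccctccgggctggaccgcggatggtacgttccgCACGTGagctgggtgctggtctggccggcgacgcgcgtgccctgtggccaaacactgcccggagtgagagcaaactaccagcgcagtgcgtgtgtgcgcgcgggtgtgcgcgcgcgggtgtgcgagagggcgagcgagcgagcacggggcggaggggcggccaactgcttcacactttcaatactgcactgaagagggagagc

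Over the promoters of 12154 tested genes, CACGTG, which reads the same on both strands, was in 10.9%. It was in 10.5% of 190 promoters of genes that passed DESeq2's test as higher, 11.8% of 136 that passed as lower and 12.8% of 149 that passed for unequal differences. The D-box TTATGTAA, searched on both strands, was in 0.847% of all, 2.11% of the higher, 0.735% of the lower and 2.01% of the unequal genes. The ROR element TAGGTCA, on both strands, was in 2.31%, 1.05%, 2.21% and 2.01%. The cAMP response element TGACGTCA, bound by CREB, was in 3.19% of all promoters, 1.05% of the higher, 8.09% of the lower (11 of 136) and 3.36% of the unequal ones. *Zwint*, on the lower side, holds a cAMP response element at chr10:72654596-72654895 on the + strand, in capitals here.
Zwint: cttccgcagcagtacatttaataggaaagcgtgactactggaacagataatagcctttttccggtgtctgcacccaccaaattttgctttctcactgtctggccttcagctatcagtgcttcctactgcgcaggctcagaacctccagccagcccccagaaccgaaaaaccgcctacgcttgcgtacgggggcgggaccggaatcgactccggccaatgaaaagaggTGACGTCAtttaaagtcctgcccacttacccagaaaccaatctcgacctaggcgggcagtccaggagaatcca

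The 25 core clock genes tested had a median log2 difference of 0.03, near that of all genes (0.01), and none passed in edgeR or DESeq2. That median came from opposite signs: 0.43 between ZT14 and ZT18 and -0.47 between ZT22 and ZT2, where all genes stood at 0.01 and 0.02. In edgeR 4 of 25 (*Per1*, *Per2*, *Ciart* and *Hlf*) were higher at ZT14 than at ZT18, against 0.657% of all genes called in either direction. Between ZT22 and ZT2 1 of 25 (*Bhlhe41*) was lower at ZT22, against 0.011% of all genes. DESeq2 called 8 of 25 for unequal differences, against 1.05% of all genes. Of those with the smallest p for the joint difference, *Rorb*, a nuclear receptor of the SCN, differed by -0.60 ± 0.21 SE. *Nr1d2*, the repressor REV-ERB beta, differed by -0.66 ± 0.25 SE and *Nfil3*, a repressor at D-boxes, by 0.76 ± 0.35 SE, with q of 0.315, 0.359 and 0.47 in edgeR.

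Transcripts of the light-input pathway mostly had positive differences, with larger medians in the ZT14 and ZT18 cluster (no test of the lists was made). Several genes of these lists were named by the study from these same libraries, so their direction is not independent evidence. The fit without ZT22 A was picked for its high count, so its calls in the lists add no independent evidence either. At the receptors, 19 of 22 glutamate receptor genes had a positive difference, with a median of 0.39 (0.68 and 0.16 in the clusters). None passed in edgeR. *Grin2b* and *Gria3* did without ZT22 A, where 121 of all 17786 genes in that fit passed as higher. In DESeq2 3 passed as higher (against 1.45% of all genes) and none as lower. These were *Grin2b* (0.91), *Gria3* (0.99) and *Grik4* (0.99), subunits of the NMDA, AMPA and kainate receptors. *Grin2b* ranged from 269.9 to 672 CPM (median 404) at ZT14 and ZT22 and from 140.0 to 421 CPM (median 235) at ZT18 and ZT2, so its groups overlapped, and it shares exonic sequence with *Gm14329*. *Gria3* ranged from 72.3 to 146 CPM (median 87.5) at ZT14 and ZT22 and from 25.1 to 117 CPM (median 49) at ZT18 and ZT2. *Gria2*, the AMPA subunit that limits calcium entry, did not pass in either (0.47 ± 0.15 SE, q = 0.251 in edgeR).

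Downstream of the receptors, 27 of 31 kinase and calcium release genes had a positive difference, with a median of 0.51 (0.74 and 0.23 in the clusters), and 6 passed in DESeq2, all higher, against 1.45% of all genes. *Camk2a* and *Camk2b* encode the alpha and beta subunits of CaM kinase II. *Camk2a* (chr18:60925618-60988152, + strand) read 874, 905 and 1345 CPM at ZT14, 349.5, 476 and 481 at ZT18, 266, 536 and 608 at ZT22 and 273, 262 and 369 at ZT2. ZT14 stood above the rest and ZT22 A fell between ZT2 libraries, with a log2 difference of 0.95 ± 0.21 SE (q = 0.123 in edgeR). *Camk2b* (chr11:5969644-6066362, - strand) read 523, 556 and 428 CPM at ZT14, 325, 337 and 221 at ZT18, 165, 225 and 183 at ZT22 and 74.8, 123 and 129 at ZT2.

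*Camk2b* was higher in both clusters without overlap and by nearly the same amount (0.77 and 0.81), 0.79 ± 0.16 SE for both, q = 0.117. Its means at ZT14, ZT18, ZT22 and ZT2 fell steadily (502, 295, 191 and 109 CPM). *Prkce* and *Prkcb* encode protein kinase C isoforms, and differed by 0.75 ± 0.15 SE and 0.92 ± 0.23 SE. *Ryr2* and *Itpr1*, the calcium release channels of the endoplasmic reticulum, differed by 1.17 ± 0.30 SE and 0.93 ± 0.25 SE. Both had the larger part between ZT14 and ZT18 (1.75 and 1.63) and the smaller between ZT22 and ZT2 (0.60 and 0.24). Without ZT22 A, edgeR called 7 of the 31, these 6 among them, where it called 127 of all 17786 genes in that fit.

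Immediate early genes, which neurons switch on within minutes of strong input, had a median difference of 0.61 over 28 genes, 22 of them positive. The median was 1.07 between ZT14 and ZT18 and 0.04 between ZT22 and ZT2. DESeq2 called 6, all higher, against 1.45% of all genes: *Fosb* (1.93), *Egr1* (1.32), *Egr3* (2.66), *Npas4* (2.75), *Dusp6* (0.99) and *Homer1* (0.90). *Egr1*, a zinc finger transcription factor (chr18:34859823-34864984, + strand), read 93.9, 59.4 and 82.6 CPM at ZT14, 13.7, 19.7 and 23.9 at ZT18, 37.3, 77.4 and 56.9 at ZT22 and 42.7, 45.8 and 24.7 at ZT2, a log2 difference of 1.32 ± 0.30 SE (q = 0.128 in edgeR). ZT14 was above ZT18 throughout, while ZT22 and ZT2 overlapped.

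*Dusp6*, which encodes a phosphatase that switches off ERK, ranged from 13.5 to 79.3 CPM (median 30.9) at ZT14 and ZT22 and from 6.5 to 38.4 CPM (median 15.1) at ZT18 and ZT2, apart in each cluster, with 0.99 ± 0.21 SE on the log2 scale. Its means at ZT14, ZT18, ZT22 and ZT2 fell steadily (65.3, 30.8, 15.5 and 8.39 CPM). *Homer1*, a postsynaptic scaffold with an activity-induced short form, differed by 0.90 ± 0.20 SE. *Fosb*, a subunit of AP-1, ranged from 0.506 to 2.96 CPM (median 1.63) at ZT14 and ZT22 and from 0.117 to 0.862 CPM (median 0.52) at ZT18 and ZT2 and was apart in each cluster (1.93 ± 0.55 SE). *Npas4*, an activity-dependent transcription factor, and *Egr3* had the largest differences of the list, 2.75 ± 0.82 SE and 2.66 ± 0.82 SE. Without ZT22 A, edgeR called *Egr1* and *Homer1*, where it called 121 of all 17786 genes in that fit as higher.

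SCN peptides and their receptors did not share a direction: 16 of 25 differences were positive and 9 negative, with a median of 0.14 (0.32 and 0.11 in the clusters). DESeq2 called *Cckbr*, the receptor of cholecystokinin and gastrin, as higher (1.62 ± 0.38 SE) and *Nms* as lower. That is 1 of 25 in each direction, against 1.45% of all genes higher and 1.06% lower. *Cckbr* ranged from 3.79 to 29.5 CPM (median 15.7) at ZT14 and ZT22 and from 1.83 to 6.97 CPM (median 3.67) at ZT18 and ZT2. The somatostatin receptor genes *Sstr1* and *Sstr2* did not pass in either (1.07 ± 0.37 SE and 1.47 ± 0.54 SE). *Vip* differed by -0.30 ± 0.19 SE and *Avp* by 0.01 ± 0.44 SE, the latter from 1.14 in the first cluster and -1.17 in the second. Of 14 markers of SCN neurons, 10 were negative, with a median of -0.28. The median was 0.04 between ZT14 and ZT18 and -0.39 between ZT22 and ZT2, and 7 of the 14 had the same sign in both clusters, against 54.3% of all genes. *Rgs16* and *Six6* were among them, with -0.52 ± 0.27 SE and -0.36 ± 0.19 SE and edgeR q of 0.523 and 0.536.

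In the GABA system the median was 0.15 over 22 genes (0.28 and -0.07 in the clusters), 15 positive and 7 negative. *Slc12a5* encodes the chloride exporter KCC2, which sets whether GABA inhibits (chr2:164960802-164999731, + strand). It read 83.1, 87.6 and 81.1 CPM at ZT14, 44, 39.4 and 59 at ZT18, 73.2, 98.2 and 80.0 at ZT22 and 39.6, 66.1 and 53 at ZT2. All 6 libraries of ZT14 and ZT22 were above all 6 others, the difference was 0.74 ± 0.15 SE (q = 0.117 in edgeR), and it passed in DESeq2 and, without ZT22 A, in edgeR. *Gabrg1*, a subunit of the GABA-A receptor, passed in DESeq2 as lower (-0.62 ± 0.14 SE). DESeq2 thus called 1 of 22 in each direction, against 1.45% of all genes higher and 1.06% lower. *Gabbr2*, a subunit of the GABA-B receptor, differed by 0.67 ± 0.19 SE and passed in neither.

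Potassium channels, which set the firing rate and spike shape of SCN neurons, had a positive difference in 37 of 39 genes, with a median of 0.56 (0.76 and 0.33 in the clusters). At an unadjusted p below 0.05 edgeR held 17 as higher and 1 as lower, against 5.81% and 4.81% of all genes. DESeq2 called 5, all higher, against 1.45% of all genes, among them *Kcna1* (1.43), *Kcna4* (1.63) and *Kcnj3* (1.12). *Kcnj3*, a G protein-gated inward rectifier subunit (GIRK1, chr2:55435970-55598145, + strand), read 41.9, 36.3 and 48.4 CPM at ZT14, 19.3, 20.8 and 5.85 at ZT18, 33.7, 68.1 and 57.7 at ZT22 and 31.8, 27.6 and 33.1 at ZT2. All 6 libraries of ZT14 and ZT22 were above all 6 others, with 1.12 ± 0.28 SE on the log2 scale and q = 0.151 in edgeR. *Kcna1*, a delayed rectifier subunit, ranged from 36.3 to 131 CPM (median 94.4) at ZT14 and ZT22 and from 18.7 to 60.7 CPM (median 30.6) at ZT18 and ZT2, with ZT2 A inside the range of ZT14 and ZT22.

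Of 18 calcium, sodium and HCN channel genes, 14 were positive, with a median of 0.23 (0.50 and 0.04 in the clusters). DESeq2 called 2 as higher, against 1.45% of all genes, and none as lower. These were *Cacna1h*, a T-type calcium channel, and *Scn8a*, a sodium channel of the axon initial segment (2.08 ± 0.46 SE and 0.93 ± 0.20 SE). *Cacna1h* ranged from 2.67 to 15.6 CPM (median 9.53) at ZT14 and ZT22 and from 0.615 to 6.03 CPM (median 1.62) at ZT18 and ZT2 and shares exonic sequence with *Tpsg1*. *Nalcn*, a sodium leak channel, had the opposite sign and passed in neither (-0.46 ± 0.15 SE, q = 0.27 in edgeR). Among 31 genes of vesicle release, 26 were positive, with a median of 0.37 (0.63 and 0.25 in the clusters), and DESeq2 called 6, all higher, against 1.45% of all genes: *Syt1* (0.68), *Vamp2* (0.32), *Unc13a* (0.77), *Cplx1* (0.82), *Cplx2* (1.01) and *Bsn* (0.90). *Syt1*, the calcium sensor of fast release (chr10:108497650-109010982, - strand), ranged from 579 to 779.5 CPM (median 736) at ZT14 and ZT22 and from 321 to 587 CPM (median 442) at ZT18 and ZT2 (0.68 ± 0.14 SE, q = 0.117 in edgeR). Without ZT22 A, edgeR called 4 of the 31 as higher, *Syt1*, *Unc13a*, *Cplx2* and *Bsn*, where it called 121 of all 17786 genes in that fit as higher. *Bsn*, the active zone scaffold bassoon, ranged from 59.8 to 146 CPM (median 121) at ZT14 and ZT22 and from 38.5 to 78 CPM (median 66.1) at ZT18 and ZT2.

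**Figure D4:**
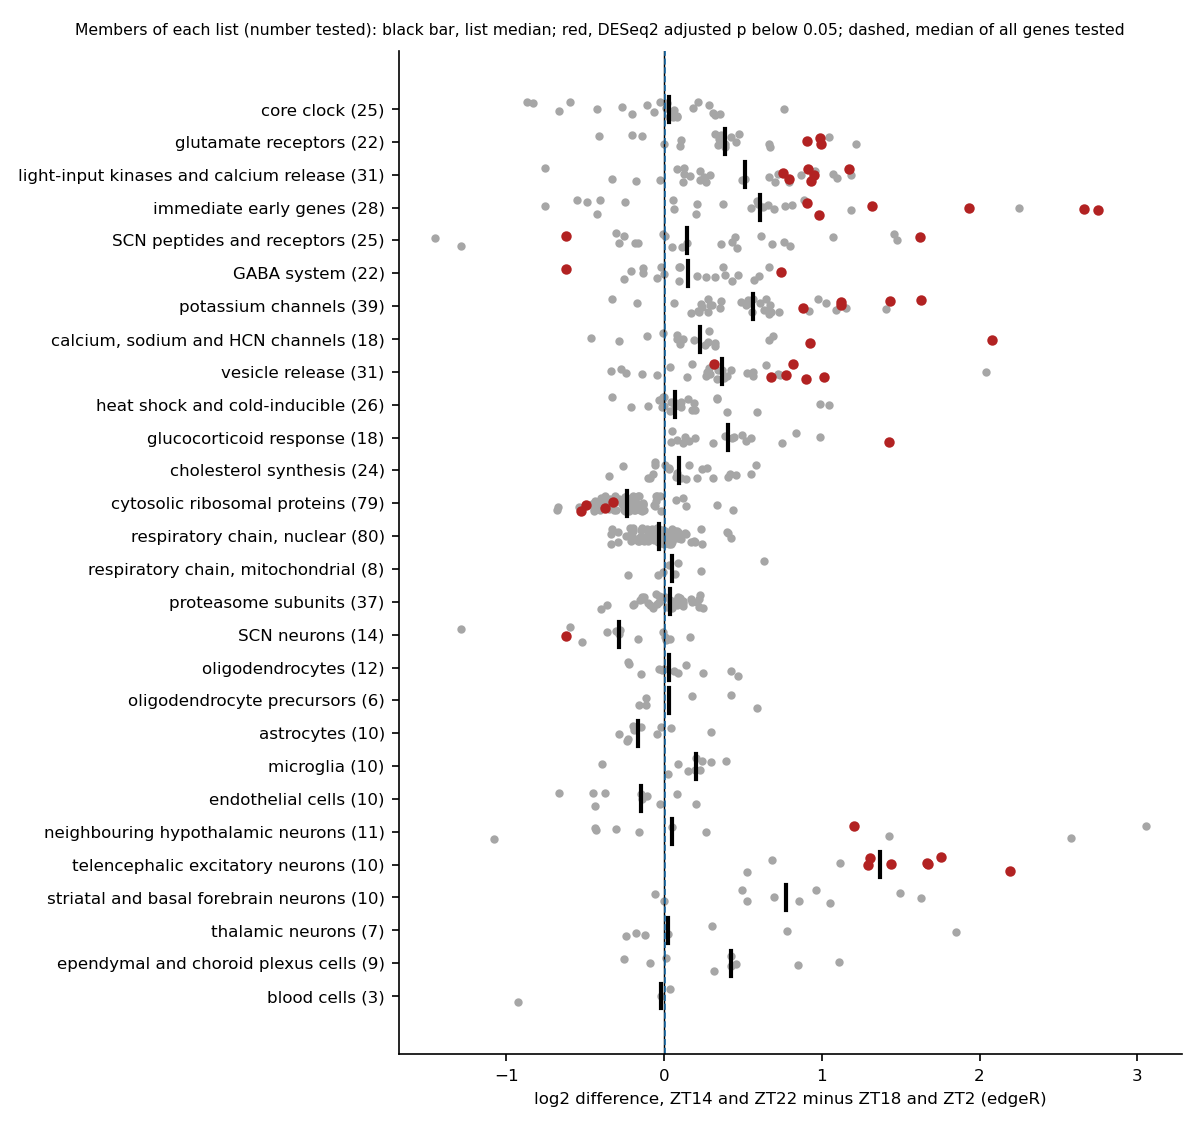
Log2 difference of ZT14 and ZT22 minus ZT18 and ZT2 from edgeR (x axis) for the members of each list (rows, with the number tested). Points are genes, red where DESeq2's adjusted p was below 0.05, the black bar is the median of the list and the dashed line the median of all genes tested (0.01). The medians of the telencephalic excitatory markers (1.37), the striatal and basal forebrain markers (0.78), the immediate early genes (0.61) and the potassium channels (0.56) lie furthest to the right, and the ribosomal proteins lie mostly left of 0.

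Markers of excitatory neurons of the telencephalon, which the SCN lacks, stood higher beside these neuronal genes. All 10 markers had a positive difference, with a median of 1.37 against 0.01 for all genes (1.61 and 1.24 in the clusters), and DESeq2 called 7 as higher, against 1.45% of all genes: *Slc17a7* (1.76), *Neurod6* (1.44), *Neurod2* (2.19), *Tbr1* (1.66), *Nrgn* (1.31), *Bhlhe22* (1.67) and *Nptx1* (1.29). Their summed level was 401, 300.4 and 497 at ZT14, 72.6, 132 and 193 at ZT18, 133, 384 and 284 at ZT22 and 99.5, 78.5 and 161 at ZT2, in CPM. It ranged from 133 to 497 CPM at ZT14 and ZT22 and from 72.6 to 193 CPM at ZT18 and ZT2. ZT22 A, whose removal moved the edgeR count most, was the lowest of its 6 and inside the range of the others. Without ZT22 A, edgeR called *Slc17a7*, *Neurod2* and *Nptx1*, where it called 121 of all 17786 genes in that fit as higher. Of the 10 markers, 1 had no read in some library. *Nrgn*, neurogranin, took 35.2% of the sum and is also read in other neurons. Their part in the differences of receptors, kinases, channels and vesicle genes was not tested.

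Markers of striatal and basal forebrain neurons had a median of 0.78 over 10 genes (1.45 and 0.12 in the clusters), 8 of them positive, and none passed in edgeR or DESeq2. Their summed level was high at ZT14 in A and B only: 770.4, 1023 and 201 at ZT14, with the other libraries between 217 and 381 CPM. *Foxp1* differed by 0.70 ± 0.25 SE and *Bcl11b* by 1.05 ± 0.38 SE. Markers of neighbouring hypothalamic neurons had a median of 0.05 over 11 tested of 14, which joined opposite medians of -0.62 between ZT14 and ZT18 and 0.77 between ZT22 and ZT2. *Npy*, neuropeptide Y, was the only member that passed in DESeq2, as higher (1.20 ± 0.29 SE), against 1.45% of all genes. *Npy* took 70.1% of the summed level of that list. It ranged from 76.9 to 215 CPM (median 145) at ZT14 and ZT22 and from 28.4 to 97.2 CPM (median 64) at ZT18 and ZT2. *Crh*, corticotropin-releasing hormone, a paraventricular peptide, stood between 0.147 and 1.1 CPM at ZT14 and ZT22 and between 0 and 0.173 at ZT18 and ZT2, and 5 members of that list had no read in some library. The 7 thalamic markers had a median of 0.03, which joined opposite medians of -0.38 between ZT14 and ZT18 and 0.41 between ZT22 and ZT2.

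Ependymal and choroid plexus markers varied between libraries of the same timepoint. Their sum, 92.6% of it from *Ttr*, the transthyretin of choroid plexus, was 19, 235 and 1415 at ZT14 and 2141, 2388 and 124 at ZT2, in CPM, and their median difference of 0.43 (1.08 and -0.77 in the clusters) had no member past either test. No marker of glial, vascular or blood cells passed either test. The 12 oligodendrocyte markers had a median of 0.03 (0.20 and -0.11 in the clusters), 7 of them positive, and the 6 of their precursors 0.03 (0.24 and -0.01 in the clusters), 3 positive. Of 10 astrocyte markers 8 were negative, with a median of -0.17 (-0.22 and -0.02 in the clusters), and of 10 microglial markers 9 were positive, with 0.20 (0.18 and 0.06 in the clusters). Of 10 endothelial markers 8 were negative, with -0.14 (-0.58 and -0.13 in the clusters), and the 3 blood markers tested of 5 had -0.02 (-0.10 and -0.03 in the clusters). Within the astrocyte list *Slc1a3* and *Gja1*, a glutamate transporter and a gap junction protein, differed by -0.29 ± 0.11 SE and -0.23 ± 0.11 SE. Within the endothelial list *Tek*, the angiopoietin receptor TIE2, differed by -0.67 ± 0.23 SE.

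**Figure D5:**
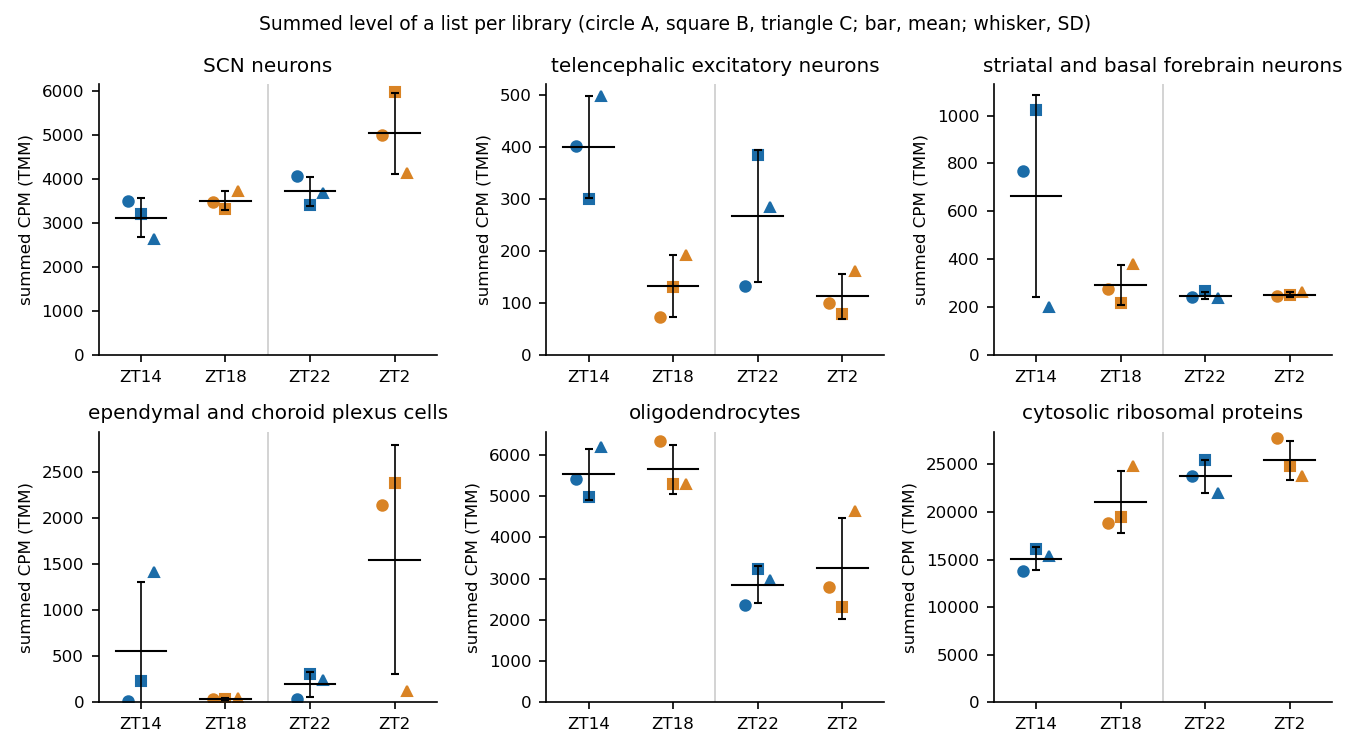
Summed level of 6 lists in each library, in CPM after TMM scaling (y axis, from 0), by timepoint. Points are libraries A, B and C, bars are means and whiskers SD (n = 3), with whiskers of the ependymal and choroid plexus panel ending at 0 where the SD exceeds the mean; blue is ZT14 and ZT22, orange ZT18 and ZT2. The telencephalic sum reaches 497 CPM at ZT14 and 384 at ZT22 against 193 at most at ZT18 and ZT2, and the striatal sum passes 381 CPM in ZT14 A and B only.

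Of 79 cytosolic ribosomal protein genes tested, 74 had a negative difference, with a median of -0.24. The median was -0.44 between ZT14 and ZT18 and -0.05 between ZT22 and ZT2. Cytosolic ribosomal proteins build the machinery of translation. At an unadjusted p below 0.05 edgeR held 28 as lower, against 4.81% of all genes, and none as higher, and DESeq2 called 4 as lower, against 1.06%: *Rpl6* (-0.37), *Rpsa* (-0.53), *Rpl7l1* (-0.32) and *Rpl13a* (-0.49). *Rpl13a*, of the large subunit, read 509, 622 and 567 CPM at ZT14, 737, 860.3 and 1132 at ZT18, 624, 628 and 564 at ZT22 and 817, 631 and 792 at ZT2, with all 6 libraries of ZT14 and ZT22 below all 6 others and -0.49 ± 0.13 SE on the log2 scale (q = 0.174 in edgeR). *Rpsa* and *Rps3*, of the small subunit, differed by -0.53 ± 0.15 SE and -0.45 ± 0.13 SE. Ribosomal protein genes have many processed copies, so the counts of single members are uncertain.

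Nuclear genes of the respiratory chain had a median of -0.03 over 80 genes, which joined opposite medians of -0.23 between ZT14 and ZT18 and 0.14 between ZT22 and ZT2, and 12 of the 80 had the same sign in both clusters, against 54.3% of all genes. The 8 mitochondrial genes of the chain had a median of 0.05 (-0.02 and 0.11 in the clusters). Proteasome subunits had 0.04 over 37 (-0.11 and 0.09 in the clusters), cholesterol synthesis 0.10 over 24 (-0.02 and 0.22 in the clusters) and heat shock and cold-inducible genes 0.07 over 26 (0.02 and 0.23 in the clusters), and no member of these 5 lists passed in edgeR or DESeq2. Among those with the smallest p were *Srebf2*, the regulator of sterol genes (0.40 ± 0.13 SE), and *Dnajb5*, a co-chaperone (0.99 ± 0.36 SE), with edgeR q of 0.281 and 0.317.

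All 18 genes of the glucocorticoid response list had a positive difference, with a median of 0.41 and medians of 0.30 and 0.39 in the clusters. Of the 18, 10 were positive in both clusters, against 5125 of all 18126 genes. Genes of this list respond to glucocorticoid hormones in many tissues. DESeq2 called 1 of the 18 as higher, against 1.45% of all genes. This was *Zbtb16*, the zinc finger factor PLZF, which read 12.7, 13.7 and 12.6 CPM at ZT14, 4.1, 3.56 and 2.59 at ZT18, 5.33, 13.4 and 9.46 at ZT22 and 5.08, 5.68 and 4.01 at ZT2 and differed by 1.43 ± 0.29 SE (q = 0.117 in edgeR). *Klf9*, *Fkbp5* and *Ddit4*, each at an unadjusted p below 0.05, differed by 0.55 ± 0.18 SE, 0.50 ± 0.18 SE and 0.84 ± 0.31 SE.

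The genes that passed DESeq2's test were not spread evenly over gene length. Among the 4483 tested genes with the longest span (from 50425 bases), 125 were called higher and 38 lower, and the median log2 difference was 0.08. Among the 4483 with the shortest span (up to 5935 bases), 28 were called higher and 40 lower, with a median of -0.01. By mean level, 110 higher and 97 lower calls fell in the most abundant 4532 genes, against 20 and 5 in the least abundant 4532. DESeq2 leaves genes with low mean counts without an adjusted p, so this contrast is partly set by that filter and nothing is concluded from it. A length was known for 98.9% of the genes tested.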

How the data were processed

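PolyA RNA of laser-captured SCN was read from 3 pools of 5 mice at each timepoint. Per the labels and methods, the authors trimmed and filtered reads, mapped them to mm10/GRCm38 with GSNAP and made the deposited table of raw read counts per gene with HTSeq 0.5.4p1, from Ensembl genes and their own lincRNAs. Every row of the raw table has an Ensembl gene identifier, so lincRNAs of the study without one were not among the genes tested. The authors also deposited a table of counts divided by DESeq2 size factors (a normalised signal), from which whole reads were recovered as an alternative. That table holds 31077 genes, of which 26118 are shared with the raw table. In the 12 libraries the recovered reads equalled the raw ones in 94.7% to 96.3% of shared genes, so the 2 tables do not hold exactly the same counts. The builds and tools are from the submitters' processing notes. The header of the count table is 1 field short, and columns were matched by name to timepoint and letter. No column was left unused.

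Counts of the 12 libraries were filtered (at least 1 read in more than 6), scaled by TMM and tested with edgeR 4.0.16 (quasi-likelihood). Here q is the Benjamini-Hochberg adjusted p, with a threshold of 0.05. The SE was back-calculated from the test, as the absolute log2 difference divided by the square root of the F statistic. The difference between the sides came from a fit with terms for cluster and side, without their interaction. The differences inside each cluster, and the test of whether they were unequal, came from a fit of the 4 timepoint means. DESeq2 1.42.0 (2562 genes without an adjusted p) and limma 3.58.1 (voom) ran in R 4.3.3 as alternatives, beside other filters, scalings, blocks, all 18 libraries and each library left out. Scripts were tested on simulated data. Totals of 15412981 to 35820945 reads limit low genes. CPM are TMM-scaled, and 97.4% of identifiers matched a symbol. Coordinates are of GENCODE gene models on GRCm38, promoters of RefSeq on GRCm38.p6.

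The members and lists were chosen with earlier results of these data known. Named genes were the 8 on each side with the smallest p (mean of at least 1 CPM), the 4 with the smallest p for unequal differences in each direction, and the 4 with the smallest p of each list. Had genes passed in edgeR, up to 12 in each direction would have been named. Strand use in counting is not given in the sources used here, so overlapping genes are uncertain. Some named genes are not reported here. No set test was run.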

Additional observations from a re-analysis of the deposited data

Results flagged for a closer look

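Of 288 groups of 6 libraries (the 132 named genes and the summed lists, on either side), 22 values (7.64%) stood apart from the other 5 libraries by more than Dixon's 95% criterion for 6 samples. Chance alone flags about 1 in 20 independent groups. These groups were not independent, since sums stand beside their own members, and *Gm10801* and *Gm10722* were named after their values were seen. The share is therefore not comparable with that rate. No explanation was tested for any flagged value. All values are in CPM.

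In ZT18 B the repeat-like gene models stood apart: *Gm11168* at 79.5, *Gm10801* at 102 and *Gm10722* at 117. At the other end *Gm11168* stood at 0.112 in ZT14 A, the lowest of its side. In ZT18 A the thalamic markers *Tcf7l2* and *Gbx2* stood highest of ZT18 and ZT2, at 159 and 4.26, with *Cacna1h*, a T-type calcium channel, at 6.03 and *Hspa1a*, a heat shock protein, at 2.94. The striatal and basal forebrain list summed to 381 in ZT18 C.

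In ZT14 C the ependymal and choroid plexus list summed to 1415 and the blood list to 472, with *Folr1*, a folate receptor of choroid plexus, at 7.87, *Hba-a1*, an alpha globin, at 436 and *Tcf7l2* at 90.8. *Sim1*, a transcription factor of paraventricular neurons, stood at 2.05 in ZT14 B. In ZT22 A the active zone gene *Bsn* stood lowest of its side, at 59.8. *Hspa4* stood at 78.6 in ZT22 B, and *Cdh5*, the endothelial cadherin, stood lowest in ZT22 C, at 2.67. Among the ZT2 libraries, *Kcna1* at 60.7 and *Alas2*, an enzyme of heme synthesis in red cells, at 47.4 stood highest in A, the myelin gene *Mobp* lowest in B at 204, and the ependymal gene *Ccdc153* highest in C at 8.83.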

How the results depend on the processing

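The count of genes past q = 0.05 for ZT14 and ZT22 against ZT18 and ZT2, 0 in the reported fit, was 455 with DESeq2, 4 with limma-voom, 4 from the timepoint means (*Rbfox1*, *Srcin1*, *Synpo* and *Mas1*), 4 with at least 10 reads in every library (*Rbfox1*, *Srcin1*, *Synpo* and *Ptk2b*), 23 with no low-count filter, 30 with all 18 libraries, and 0 to 127 without single libraries. The cause of the difference between tools was not tested. Same letters did not pair the samples (correlations of deviations from -0.187 to 0.104). A replicate block by letter gave 0 genes and a replicate block within clusters 2 (*Rbfox1* and *Hpca*). Between ZT14 and ZT18 (119) the counts were 1204 with DESeq2, 223 with limma-voom, 191 with at least 10 reads in every library, 66 with at least 1 read in at least 3, 60 with upper-quartile scaling, 0 with either replicate block and 0 to 142 without single libraries (0 without ZT14 A, ZT14 B, ZT18 B or ZT22 B, 1 without ZT22 C, 2 without ZT14 C, 12 without ZT2 B, 63 without ZT2 C and 71 without ZT18 A). Between ZT22 and ZT2 (2) they were 41 with DESeq2, 7 with limma-voom, 6 with all 18 libraries, 5 with at least 10 reads in every library, 5 with no filter, 4 with DESeq2 size factors, 4 with upper-quartile scaling, 0 with either replicate block and 0 to 6 without single libraries. These few included *Bhlhe41* and *Rasl11b* in each of those counts of 4 to 7, and *Prok2*. Unequal differences (0) gave 191 with DESeq2, 3 with limma-voom, 3 with all 18 libraries (*Hlf*, *Prok2* and *Per2*), 5 with at least 10 reads in every library (those 3, *Ciart* and *Qrfpr*), 4 with no filter (*Prok2*, *Bhlhe41*, *Ciart* and *Per2*), 0 with a replicate block by letter, 1 with a replicate block within clusters (*Prok2*) and 0 to 8 without single libraries.

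Of the log2 differences of named genes under these alternatives, 3124 kept their direction and side of the threshold, 115 newly passed and 31 turned sign, all of genes that passed in neither edgeR nor DESeq2. *Per2* turned to -0.0081 with DESeq2 and lay between -0.22 and 0.35 without single libraries (negative without any 1 of the ZT14 and ZT18 libraries: -0.08, -0.02 and -0.10 without ZT14 A, B and C, -0.21 and -0.16 without ZT18 B and C). *Ciart* turned to -0.19 with no cluster block and lay between -0.25 and 0.52 without single libraries (-0.03 without ZT14 A, -0.11 without ZT18 B). *Folr1* turned to -1.17 with limma-voom and -0.89 with no block and lay between -0.51 and 3.06 without single libraries (-0.49 without ZT18 A, -0.47 without ZT18 C), and *Foxj1* turned to -0.016 with no block. Without single libraries *Hba-a2* lay between -0.24 and 0.26 (-0.01 without ZT18 A, -0.16 without ZT2 A, -0.05 without ZT22 A), *Hba-a1* between -0.36 and 0.19 (0.11 without ZT14 A, 0.09 without ZT14 B or ZT18 C, 0.04 without ZT22 B), *mt-Nd5* between -0.048 and 0.30 (-0.01 without ZT18 A), *Gpr17* between -0.047 and 0.32 and *Tcf7l2* between -0.33 and 0.17 (0.01 without ZT14 A). Genes with libraries apart in both clusters (205 higher, 150 lower) were more without a library, since fewer must then be apart, in alternatives chosen after seeing the data: 584 and 261 without ZT22 A, 420 and 327 without ZT2 C, 359 and 270 without ZT2 B, and 280 and 238 lower without ZT18 C and ZT22 B.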

Other observations

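Some transcripts differed between the clusters far more than between the sides. *Cox6a1*, a subunit of cytochrome c oxidase, stood between 813 and 1070.2 CPM in the 6 libraries of ZT14 and ZT18 and between 36.2 and 55.6 CPM in those of ZT22 and ZT2, while the difference between the sides was 0.20 ± 0.11 SE. *mt-Co2*, a mitochondrial subunit of the same complex, read 2.72, 4.19 and 3.33 CPM at ZT14, 1.77, 1.68 and 2.16 at ZT18, 0.146, 0.519 and 0.433 at ZT22 and 0.457, 0.217 and 0.194 at ZT2. Batch and timepoint cannot be told apart for this split.

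By exonic length the same lean was seen as by span: among the 4483 tested genes with the longest exonic sequence (from 6096 bases) DESeq2 called 106 higher and 44 lower, and among the 4484 with the shortest (up to 1956 bases) 13 higher and 42 lower.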
